A study of Mus musculus with 13 samples.

Results

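The genes of the major histocompatibility complex (MHC, H2 in the mouse) and of the antigen presentation machinery were examined in RNA of whole mouse hearts. Members were all gene symbols that begin with H2- together with B2m, Tap1, Tap2, Tapbp, Cd74, Ciita, Nlrc5, Psmb8, Psmb9 and Psmb10, which gave 55 of the 53278 symbols in the count files. By role, 40 belong to class I, 14 to class II and 1, H2-Ke6, to neither, since it encodes a hydroxysteroid dehydrogenase that shares only the prefix. After the filter on low counts 29 of the 55 were tested among 15690 genes: 20 of class I, 8 of class II and H2-Ke6. Among the tested class I genes, H2-K2, H2-Q5 and H2-T10 are annotated as pseudogenes, H2-Q5 and H2-T10 as polymorphic ones.

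The 13 hearts came from male wild-type (WT) C57Bl6 mice operated on at 12 weeks of age and harvested at 17 weeks. The IR edit group (4 hearts) underwent ischaemia and reperfusion (IR), a temporary block of blood flow, and received a functional editing system directed at CaMKIIdelta, a calcium-dependent kinase of heart muscle. The IR virus group (3 hearts) underwent IR and received a control virus, the IR group (3 hearts) underwent IR with no injection, and the Sham group (3 hearts) had sham surgery with no injection. The labels give neither the type nor the dose of virus, nor whether hearts were pooled, so p-values measure the spread between these samples. The Sham and IR groups differ from the other hearts also in lacking an injection.

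MHC class I molecules are carried by nearly all nucleated cells and display peptides from inside the cell to CD8+ T cells. Their heavy chains pair with B2m, and their peptides are cut by the immunoproteasome and pumped into the endoplasmic reticulum by the TAP transporter. MHC class II molecules display peptides from ingested material to CD4+ T cells and are made mainly by macrophages, dendritic cells and B cells, all of which live in the heart in small numbers. Each class has its own transactivator, Nlrc5 for class I and Ciita for class II. Neither binds DNA itself: both dock on a complex of RFX, CREB and NF-Y proteins that sits on the X and Y boxes of the promoters, and interferon gamma induces both.

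Promoter stretches of 60 bases are shown first because the X and Y boxes are the sequences that both classes share. They come from the RefSeq promoter table (build GRCm38.p6, the same assembly as mm10), in which 38 of the 55 members had an entry, with 41 windows from 250 bases before to 50 after a start. Each runs 5′ to 3′ on the strand of its gene. Capitals mark ATTGG, the Y box core (CCAAT on the other strand), and before it either TGACG, a partial site of CREB factors within the X box, or AGNAAC, an X box core.

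H2-K1: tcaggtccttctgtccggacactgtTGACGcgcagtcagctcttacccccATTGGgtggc
H2-D1: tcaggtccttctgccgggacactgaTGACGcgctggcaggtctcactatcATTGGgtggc
H2-Q7: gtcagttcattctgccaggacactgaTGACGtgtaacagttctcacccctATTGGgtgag
H2-Q4: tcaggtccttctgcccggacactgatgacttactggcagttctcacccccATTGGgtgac
H2-M3: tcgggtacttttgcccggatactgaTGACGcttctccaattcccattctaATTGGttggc
B2m: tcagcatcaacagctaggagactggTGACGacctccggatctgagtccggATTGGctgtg
H2-Aa: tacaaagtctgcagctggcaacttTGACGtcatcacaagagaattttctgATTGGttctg
H2-Eb1: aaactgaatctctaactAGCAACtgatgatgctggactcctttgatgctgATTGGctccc
H2-DMb1: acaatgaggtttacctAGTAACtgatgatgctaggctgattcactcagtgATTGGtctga
H2-Ob: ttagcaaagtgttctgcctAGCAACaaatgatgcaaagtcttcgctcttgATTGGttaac

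The stretches of H2-K1 (chr17:34000354-34000413, minus strand), H2-D1 (chr17:35262968-35263027, plus strand), H2-Q7 (chr17:35439065-35439124, plus strand), H2-Q4 (chr17:35379488-35379547, plus strand) and H2-M3 (chr17:37270163-37270222, plus strand) belong to class I heavy chains. That of B2m (chr2:122147584-122147643, plus strand) belongs to the class I light chain. Those of H2-Aa (chr17:34287862-34287921, minus strand), H2-Eb1 (chr17:34305758-34305817, plus strand), H2-DMb1 (chr17:34153080-34153139, plus strand) and H2-Ob (chr17:34238798-34238857, plus strand) belong to class II. With both strands searched, CCAAT stood in 35 of the 41 member windows (85.4%) and in 37.4% of all 32851 promoter windows of the same length. AGNAAC stood in 58.5% of member windows against 48.1% of all, and TGACG in 39% against 20.8%. The interferon-stimulated response element was found in 7.32% of member windows against 3.44% of all, and the gamma activated site TTCNNNGAA in 9.76% against 8.3%. On the gene's strand, TGACG lay 20 to 30 bases before ATTGG in 82 of all windows (0.25%), and 6 members were among them: B2m, H2-Aa, H2-D1, H2-K1, H2-M3 and H2-Q7. AGNAAC lay 30 to 36 bases before ATTGG in 63 windows (0.192%), with H2-DMb1, H2-Eb1, H2-Eb2, H2-M10.4 (pair past the start), H2-Oa and H2-Ob among them. These spacings were chosen after the sequences were seen. The pair was not matched in the stretch of H2-Q4, shown for comparison. A match is a string of letters and was not tested as a binding site.

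Of the 26 members that did not pass the filter, 20 were class I and 6 class II. In all, 13 had 0 reads in the 13 hearts together, which allows a level of up to 0.00979 CPM (counts scaled to the effective library size, here from 3 counts in the total, for counting error only). They were H2-M1, H2-M9, H2-M10.1, H2-M10.3, H2-M10.4, H2-M10.5, H2-M10.5-ps1, H2-M10.6, H2-M11 and H2-Q3 of class I, and H2-Ea-ps, H2-Pa and H2-Pb of class II. H2-Ea-ps is the E alpha chain, of which C57BL/6 mice have no expressed copy. The other 13 had 1 to 67 reads over all hearts: H2-M10.2, H2-Q1, H2-T3, H2-Bl, H2-M2, H2-Q2, H2-T-ps, H2-Q10, H2-M6-ps and H2-M5 of class I, and H2-Oa, H2-Eb2 and H2-DMb2 of class II. H2-DMb2, a peptide editor chain, had the most at 67.

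Libraries held 20634820 to 27265276 counted reads, and mitochondrial transcripts took 29.7% to 38.5% of them. Summed cardiomyocyte markers (7 of 7 tested) ran from 37210 to 44382 CPM in IR edit, 41388 to 44624 in IR virus, 39324 to 41484 in IR and 39770 to 47782 in Sham hearts. No listed marker of the cell types examined was at 0 in all libraries. Camk2d, the targeted kinase gene, averaged 223 ± 17.9 CPM in IR edit (SD, n = 4), 217 ± 18.4 in IR virus (n = 3), 241 ± 5.42 in IR (n = 3) and 251 ± 45.1 in Sham hearts (n = 3), and was not called in any comparison by edgeR. Gene counts do not show editing of its codons.

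Levels per length of exon, in CPM per kb averaged over the 13 hearts, put the light chain B2m at the top of the 29 tested members with 260. The heavy chains H2-D1 and H2-K1 (chromosome 17, 33996017 to 34000347, minus strand) had 35.2 and 29.999 CPM per kb. Cd74, the invariant chain that guards the class II groove until loading, had 30.05 CPM per kb and was the highest of class II. Tapbp (tapasin, which bridges TAP and the heavy chain) had 11.3 and H2-Eb1, the E beta chain, 10.8 CPM per kb. The 8 lowest members included both transactivators and 3 class II peptide editors: Nlrc5 had 1.01, H2-DMb1 0.862, H2-DMa 0.498, Ciita 0.188 and H2-Ob 0.178 CPM per kb. The nonclassical class I loci H2-K2 with 0.470 and H2-T10 with 0.287, both annotated as pseudogenes, and H2-Ke6 with 0.230 CPM per kb, lay among them. The neighbours Cd74 and H2-K1 changed order with the group: per kb, Cd74 had 27.98 and H2-K1 28.9 CPM in IR edit hearts, 35.3 and 32.05 in IR virus, 30.8 and 32.3 in IR and 26.8 and 27.2 in Sham hearts.

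The question the design puts to these genes is whether they differ after IR, and whether the editing system or the control virus goes with another level. No member passed edgeR's quasi-likelihood test with Benjamini-Hochberg adjustment over all 15690 genes (threshold 0.05) in any of the 6 comparisons. Between IR edit and IR virus 0 of 29 members were called, against 2.02% of all genes tested. There, 7 of 29 members had an unadjusted p under 0.05 (15.2% of all genes), and DESeq2 called 1, Tap1, where it called 3.3% of all genes. Between IR edit and IR 0 members were called (1.42% of all genes), 5 had an unadjusted p under 0.05 (14.5% of all genes), and DESeq2 called 2, Tap1 and Nlrc5, where it called 2.83% of all genes. Between IR edit and Sham 0 were called (8.01% of all genes), with 1 at an unadjusted p under 0.05 (23.6% of all genes) and 0 called by DESeq2. In IR virus against Sham 0 were called (0.0127% of all genes), with 8 under 0.05 unadjusted (15.4% of all genes) and 0 by DESeq2. In IR against Sham 0 were called (0.0127% of all genes), with 5 under 0.05 unadjusted (8.33% of all genes) and 0 by DESeq2. In IR virus against IR 0 were called (0% of all genes), and 0 had an unadjusted p under 0.05 (3.84% of all genes) or were called by DESeq2. Comparisons with the same group in them share its hearts and are not independent.

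Below that threshold the fitted changes of both classes were mostly of 1 sign in 4 of the comparisons. For IR edit over IR virus the log2 fold change was negative in 18 of 20 class I and 8 of 8 class II genes, with medians of -0.23 and -0.36, against -0.01 over all genes tested. For IR edit over IR it was negative in 18 of 20 and 7 of 8, with medians of -0.27 and -0.25, against -0.00 over all genes. For IR virus over Sham it was positive in 18 of 20 and 8 of 8, with medians of 0.27 and 0.56, against 0.01. For IR over Sham it was positive in 18 of 20 and 8 of 8, with medians of 0.25 and 0.35, against 0.00. IR edit against Sham gave 8 of 20 and 7 of 8 positive values, with medians of -0.04 and 0.10, against -0.00. IR virus against IR gave 9 of 20 and 7 of 8, with medians of -0.01 and 0.15, against 0.00. Genes within a class share regulators and reads, so these counts are a description.

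**Figure D1:**
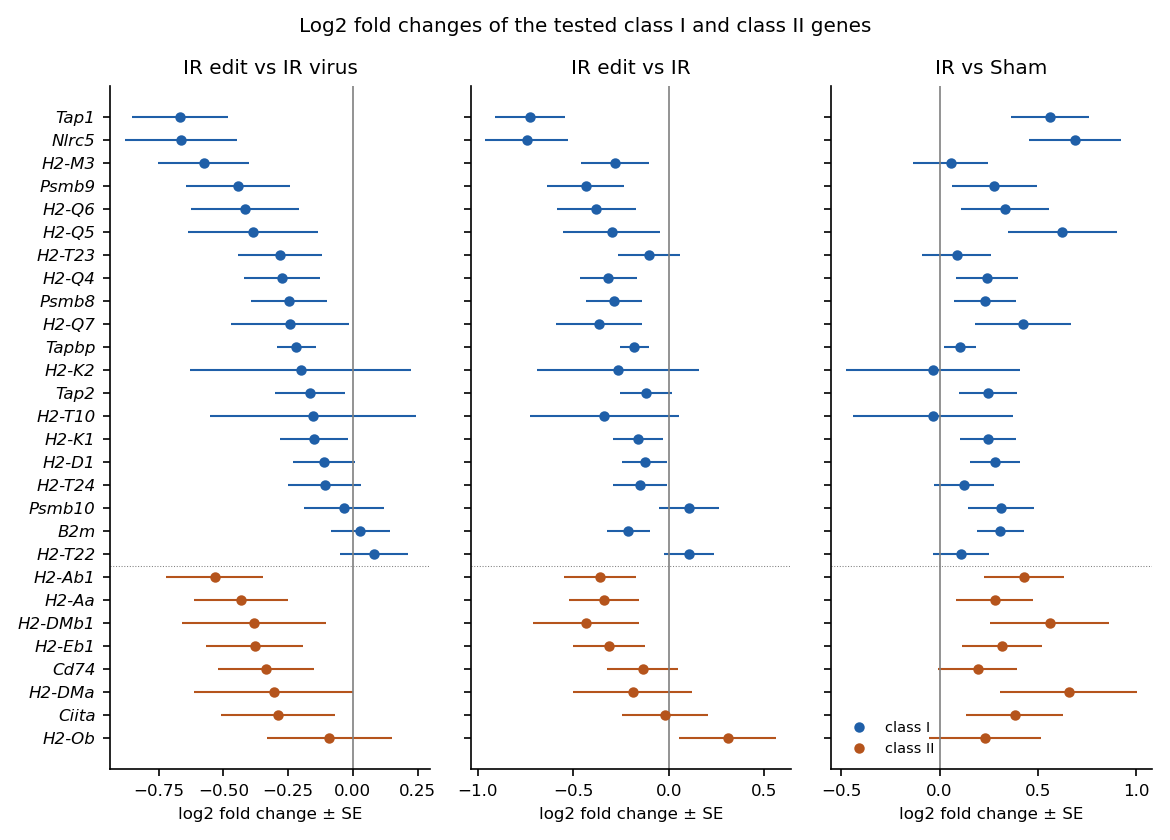
Log2 fold change (x axis, point with SE bar) of each of the 28 tested class I (blue) and class II (orange) genes (rows, ordered by the first panel) in 3 comparisons: IR edit over IR virus, IR edit over IR, IR over Sham. Most points lie left of 0 in both IR edit panels and right of 0 in IR against Sham, with Tap1 and Nlrc5 at the outer edge of class I in both IR edit panels. None passed the test over all genes.

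Tap1 and Nlrc5 had the most negative fitted changes among the 20 class I genes in IR edit against IR virus and against IR. In the other comparisons this order did not hold: H2-Q5, a nonclassical class I locus annotated as a polymorphic pseudogene, had 0.63 ± 0.28 in IR over Sham (adjusted p = 0.575 by edgeR) and 0.71 ± 0.27 in IR virus over Sham (adjusted p = 0.252). Tap1 (chromosome 17, 34187553 to 34197225, plus strand), a chain of the peptide pump, had 10.8, 6.95, 6.003 and 5.79 CPM in IR edit hearts, 12.5, 11.1 and 11.8 in IR virus, 11.5, 11.3 and 14.2 in IR and 9.14, 6.67 and 9.18 in Sham hearts. All IR edit hearts lay below all IR virus and all IR hearts, though IR edit replicate 1 did so narrowly, and IR edit and Sham hearts overlapped. Its log2 fold change was -0.67 ± 0.18 (SE) in IR edit against IR virus (adjusted p = 0.0838 by edgeR), -0.73 ± 0.18 in IR edit against IR (adjusted p = 0.0643) and 0.56 ± 0.20 in IR against Sham (adjusted p = 0.459). Nlrc5 (chromosome 8, 94434356 to 94527272, plus strand), the class I transactivator, had 9.90, 5.24, 6.93 and 4.25 CPM in IR edit hearts, 11.9, 9.49 and 9.98 in IR virus, 10.3, 10.1 and 12.9 in IR and 6.61, 5.94 and 8.09 in Sham hearts. IR edit hearts lay below IR hearts without overlap, and replicate 1 reached into the range of IR virus. The log2 fold change of Nlrc5 was -0.66 ± 0.22 in IR edit against IR virus (adjusted p = 0.147 by edgeR), -0.75 ± 0.22 in IR edit against IR (adjusted p = 0.113) and 0.69 ± 0.23 in IR against Sham (adjusted p = 0.439).

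Both genes were called with all hearts kept under other settings: DESeq2 called Tap1 in IR edit against IR virus and, with Nlrc5, in IR edit against IR, and edgeR with no filter on low counts called both genes in both comparisons. With the filter, edgeR's calls turned on IR edit replicate 1. Without it, Tap1 and Nlrc5 were called in IR edit against IR virus, with log2 fold changes of -0.91 (adjusted p = 0.00387 by edgeR) and -0.93 (adjusted p = 0.0135), where 3.06% of all genes were called. In IR edit against IR they were then called with -0.97 (adjusted p = 0.00277) and -1.02 (adjusted p = 0.00869), where 1.93% of all genes were called. Over all alternatives run, the adjusted p of Tap1 in IR edit against IR virus ran from 3.53e-05 with no filter to 0.276, and that of Nlrc5 from 9.26e-05 with no filter to 0.446. Replicate 1 was the highest of the 4 IR edit hearts in 17 of 20 class I and 5 of 8 class II genes, and in 26.5% of all genes tested. In the other groups, replicate 1 was the highest of its group in 14 of 20 class I genes in IR virus (36.7% of all genes). It was so in 13 of 20 in Sham (34.5%) and in 7 of 20 in IR (32.1%). Nothing in the labels sets IR edit replicate 1 apart, and the values with it are the ones reported.

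**Figure D2:**
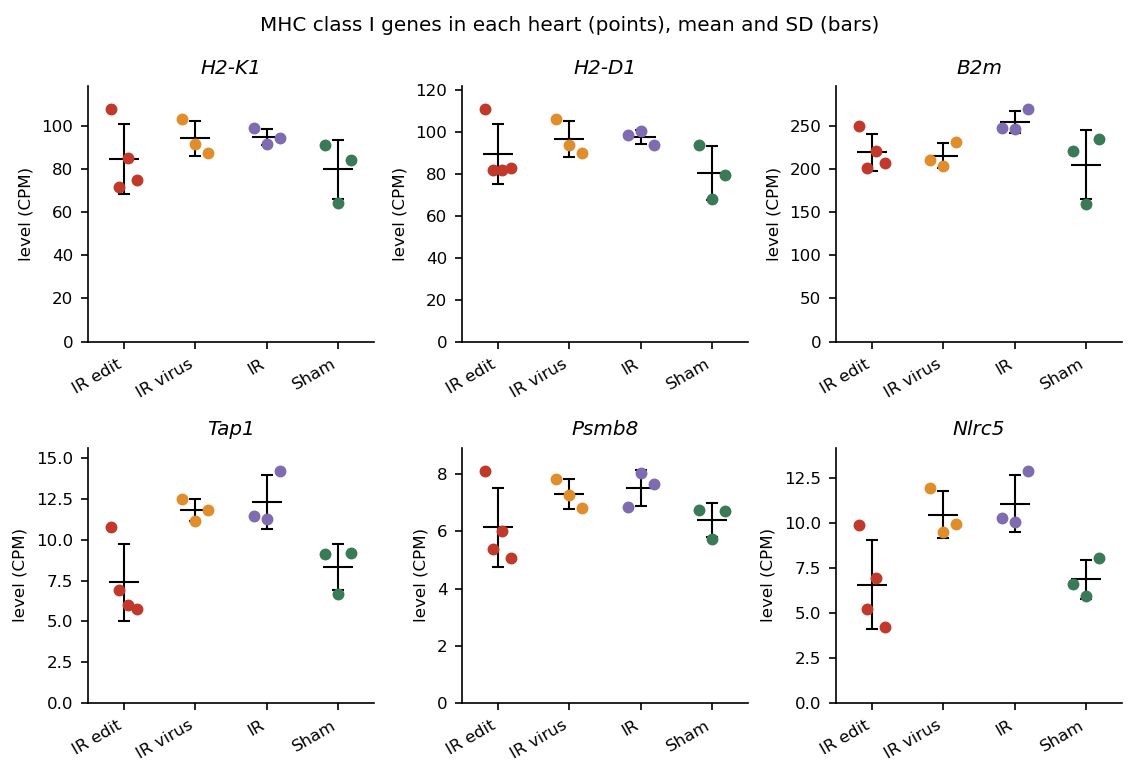
Level in CPM (y axis, from 0) of 6 class I genes in each heart of the IR edit, IR virus, IR and Sham groups (points), with the mean and SD as bars. In Tap1 and Nlrc5 3 of the 4 IR edit hearts lie low and replicate 1 lies near the IR virus and IR hearts. H2-K1 and H2-D1 groups overlap except IR over Sham, where the gap is narrow.

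The classical heavy chains had smaller fitted changes. H2-K1 had 108, 71.8, 84.9 and 75.0 CPM in IR edit hearts, 103, 91.7 and 87.4 in IR virus, 98.8, 91.4 and 94.3 in IR and 90.9, 64.4 and 84.2 in Sham hearts. H2-D1 (chromosome 17, 35262730 to 35267499) had 111, 82.0, 81.7 and 82.9 CPM in IR edit hearts, 106, 93.6 and 90.0 in IR virus, 98.5, 100.3 and 93.8 in IR and 93.6, 67.7 and 79.3 in Sham hearts. In both genes the IR edit group overlapped every other group, and its replicate 1 was the highest of all 13 hearts. Log2 fold changes in IR edit against IR virus were -0.15 ± 0.13 for H2-K1 (adjusted p = 0.632 by edgeR) and -0.11 ± 0.12 for H2-D1 (adjusted p = 0.697). B2m (chromosome 2, 122147686 to 122153083), the light chain, had 250, 202, 221 and 207 CPM in IR edit hearts, 211, 204 and 232 in IR virus, 247, 246 and 269 in IR and 221, 160 and 235 in Sham hearts. The IR hearts were above all Sham hearts, at a log2 fold change of 0.31 ± 0.12 (adjusted p = 0.534 by edgeR), and IR edit and IR virus hearts overlapped with each other (0.03 ± 0.11, adjusted p = 0.935).

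Tapbp had 40.4, 38.0, 37.3 and 36.7 CPM in IR edit hearts, 48.0, 44.1 and 40.8 in IR virus, 42.0, 44.2 and 43.3 in IR and 42.7, 41.2 and 36.5 in Sham hearts. IR edit hearts were below all IR virus and IR hearts by small margins, with a log2 fold change of -0.22 ± 0.08 against IR virus (adjusted p = 0.172 by edgeR). Tap2, the other chain of the pump, had 12.4, 9.23, 9.63 and 8.54 CPM in IR edit hearts, 11.7, 11.9 and 9.93 in IR virus, 11.6, 10.3 and 10.6 in IR and 9.93, 10.03 and 7.33 in Sham hearts. Its IR edit and IR virus hearts overlapped, at -0.17 ± 0.14 (adjusted p = 0.602), so the fitted change of Tap2 was smaller than that of Tap1, a difference between genes that was not tested.

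The 3 immunoproteasome subunits differed among themselves. Psmb8 had 8.12, 5.38, 6.003 and 5.06 CPM in IR edit hearts, 7.84, 7.27 and 6.82 in IR virus, 6.84, 8.06 and 7.67 in IR and 6.76, 5.73 and 6.72 in Sham hearts. Psmb9 had 4.64, 3.18, 3.47 and 2.63 CPM in IR edit hearts, 5.73, 3.82 and 4.67 in IR virus, 4.94, 4.99 and 4.25 in IR and 4.83, 3.01 and 3.78 in Sham hearts. For both, 3 IR edit hearts were below every IR virus heart and replicate 1 was not, with log2 fold changes of -0.25 ± 0.15 (Psmb8, adjusted p = 0.452 by edgeR) and -0.44 ± 0.20 (Psmb9, adjusted p = 0.317). Psmb10 had 17.5, 16.2, 11.5 and 17.7 CPM in IR edit hearts, 18.2, 15.0 and 15.2 in IR virus, 16.0, 16.0 and 12.0 in IR and 9.86, 13.95 and 11.6 in Sham hearts. It had the smallest p of class I in IR edit against Sham, at 0.42 ± 0.16 (adjusted p = 0.120), and IR edit replicate 3 alone kept the groups from separating. Without that heart Psmb10 was called at 0.54 (adjusted p = 0.0163), where 15% of all genes were called, and over all alternatives its adjusted p ran from 0.00997 to 0.336. Psmb9 (34181987 to 34187764, minus strand) and Tap1 overlap head to head on chromosome 17, and since strand use in counting is not given in the sources used here, reads in the overlap cannot be told apart.

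Nonclassical class I genes gave the remaining values. H2-M3, which presents formylated bacterial and mitochondrial peptides, had 2.97, 3.27, 1.76 and 3.16 CPM in IR edit hearts, 4.62, 3.95 and 3.999 in IR virus, 3.38, 3.58 and 3.29 in IR and 3.74, 3.10 and 2.98 in Sham hearts. IR edit hearts were below all IR virus hearts, at -0.58 ± 0.18 (adjusted p = 0.119 by edgeR), and almost touched the IR hearts. H2-T23, the Qa-1 molecule read by natural killer receptors, had -0.28 ± 0.16 in IR edit against IR virus (adjusted p = 0.426), and H2-T22, a ligand of gamma delta T cells, 0.08 ± 0.13 (adjusted p = 0.810). The H2-Q family, over all H2-Q symbols (of which H2-Q4, H2-Q5, H2-Q6 and H2-Q7 were tested), summed to 38.1 ± 10.5 CPM in IR edit (SD, n = 4), 47.9 ± 4.05 in IR virus (n = 3), 48.5 ± 2.27 in IR (n = 3) and 38.8 ± 9.52 in Sham hearts (n = 3). Single H2-Q and H2-T values are uncertain because 50-base windows shared with other genes made up 36.4% of H2-Q4, 36.4% of H2-Q5, 35.0% of H2-Q6, 26.5% of H2-Q7, 53.5% of H2-T22 and 50.4% of H2-T10, against 9.63% of H2-K1 and 0% of B2m, and how the counting treated shared reads is not given in the sources used here.

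H2-Ab1 (chromosome 17, 34257689 to 34269419), the A beta chain, had 14.8, 8.65, 11.7 and 10.03 CPM in IR edit hearts, 17.6, 18.2 and 13.3 in IR virus, 15.0, 13.3 and 15.1 in IR and 14.4, 9.09 and 8.66 in Sham hearts. It had the smallest p of class II in IR edit against IR virus, at -0.53 ± 0.19 (adjusted p = 0.182 by edgeR), with replicate 1 of IR edit inside the IR virus range. In IR virus against Sham it had 0.60 ± 0.20 (adjusted p = 0.206), with Sham replicate 1 above the lowest IR virus heart. H2-Aa (34282744 to 34287823, minus strand), the A alpha chain, had 30.2, 23.3, 28.1 and 21.1 CPM in IR edit hearts, 34.7, 38.9 and 30.3 in IR virus, 33.3, 31.2 and 33.1 in IR and 38.2, 20.2 and 21.7 in Sham hearts. IR edit hearts lay below all IR virus and IR hearts with almost no gap, at -0.43 ± 0.18 against IR virus (adjusted p = 0.273) and -0.34 ± 0.18 against IR (adjusted p = 0.419).

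H2-Eb1 (34305867 to 34316674, plus strand) had 22.1, 17.5, 21.5 and 13.9 CPM in IR edit hearts, 25.4, 26.8 and 20.8 in IR virus, 21.5, 21.9998 and 26.3 in IR and 25.7, 14.2 and 15.9 in Sham hearts. Cd74 had 57.8, 41.5, 47.2 and 41.4 CPM in IR edit hearts, 64.5, 65.2 and 48.2 in IR virus, 48.3, 47.8 and 58.9 in IR and 63.6, 34.2 and 37.4 in Sham hearts. Groups overlapped in both genes in every comparison, and IR edit against IR virus gave -0.38 ± 0.19 for H2-Eb1 (adjusted p = 0.352 by edgeR) and -0.33 ± 0.19 for Cd74 (adjusted p = 0.414). Ciita (chromosome 16, 10480059 to 10528418), the class II transactivator, had 1.67, 1.66, 2.48 and 1.42 CPM in IR edit hearts, 2.35, 2.56 and 1.64 in IR virus, 1.82, 1.75 and 1.86 in IR and 1.74, 1.12 and 1.28 in Sham hearts. Its highest fitted change was in IR virus against Sham, at 0.65 ± 0.24 (adjusted p = 0.241), with overlapping hearts.

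The peptide editors of class II had low counts. H2-Ob, the beta chain of the editor H2-O, had 1.11, 0.762, 1.14 and 1.25 CPM in IR edit hearts, 1.47, 1.01 and 0.926 in IR virus, 0.866, 1.07 and 0.650 in IR and 0.755, 0.732 and 0.710 in Sham hearts. IR edit hearts were above all Sham hearts, at 0.54 ± 0.26 (adjusted p = 0.226 by edgeR), the smallest p of class II in that comparison. H2-DMa and H2-DMb1, the chains of the editor H2-DM, averaged 1.67 and 1.28 CPM in IR edit hearts, 2.09 and 1.67 in IR virus, 1.93 and 1.74 in IR and 1.19 and 1.15 in Sham hearts. Their log2 fold changes in IR against Sham were 0.66 ± 0.35 (adjusted p = 0.658) and 0.56 ± 0.30 (adjusted p = 0.661).

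**Figure D3:**
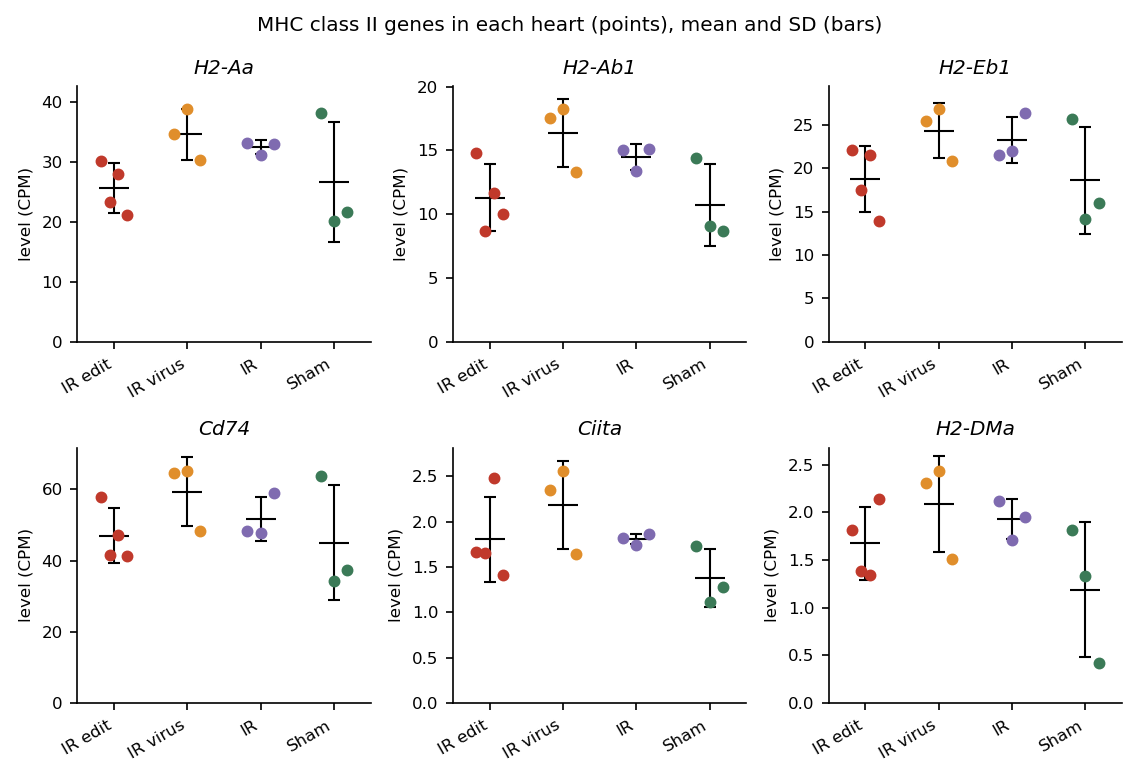
Level in CPM (y axis, from 0) of 6 class II genes in each heart of the IR edit, IR virus, IR and Sham groups (points), with the mean and SD as bars. Sham replicate 1 lies far above the other 2 Sham hearts in H2-Aa, H2-Eb1 and Cd74, and IR virus replicate 3 is the lowest of its group in all 6 genes.

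Groups did not overlap, with IR edit lower, in 5 of 29 members against IR virus (7.07% of all genes): Tap1, H2-M3, Tapbp, H2-Aa and H2-DMb1. Against IR it was 6 of 29 (6.85% of all genes): Tap1, Nlrc5, H2-M3, Tapbp, H2-Aa and H2-DMb1. IR virus hearts were above all Sham hearts in 6 of 29 members (11% of all genes): Tap1, Nlrc5, Psmb8, H2-M3, Psmb10 and H2-Ob. IR hearts were above all Sham hearts in 10 of 29 (7.94% of all genes), of which 9 were class I, including B2m, H2-K1, H2-D1, Tap1 and Nlrc5, and 1, Ciita, was class II.

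Class I and class II were then set side by side as a score per heart, the mean log2 CPM over the tested genes of the class. The class I score was 3.25 ± 0.27 in IR edit (SD, n = 4), 3.55 ± 0.12 in IR virus (n = 3), 3.55 ± 0.026 in IR (n = 3) and 3.28 ± 0.17 in Sham hearts (n = 3). The class II score was 2.53 ± 0.18 in IR edit, 2.87 ± 0.23 in IR virus, 2.72 ± 0.048 in IR and 2.28 ± 0.44 in Sham hearts. Class II minus class I was -0.73 ± 0.20 in IR edit, -0.68 ± 0.21 in IR virus, -0.83 ± 0.032 in IR and -0.99 ± 0.33 in Sham hearts, so the groups overlapped in the balance of the classes. In summed CPM the ratio of class II to class I was 0.196 ± 0.0139 in IR edit, 0.238 ± 0.0375 in IR virus, 0.202 ± 0.0117 in IR and 0.200 ± 0.0505 in Sham hearts. In bulk hearts, fewer presenting cells and less RNA per cell cannot be told apart.

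**Figure D4:**
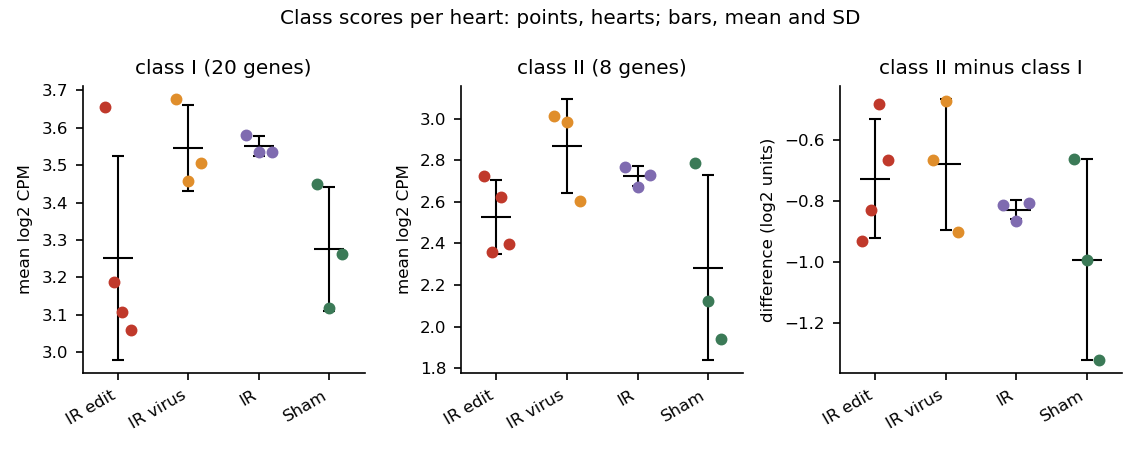
Mean log2 CPM per heart (y axis) over the 20 tested class I genes, over the 8 tested class II genes, and their difference, in the IR edit, IR virus, IR and Sham groups (points are hearts, bars the mean and SD). IR hearts cluster tightly in all panels. IR edit replicate 1 stands above the other 3 IR edit hearts in class I, and Sham hearts spread widest in class II.

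Sham replicate 1 was the highest of its group in 8 of 8 class II genes (34.5% of all genes) and 13 of 20 class I genes, with a summed class II level of 148 CPM against 82.0 and 86.9 in the other Sham hearts. Without it the class II score difference of IR against Sham was 0.69, against 0.44 with it, and that of class I was 0.36, against 0.27. IR virus replicate 3 was the lowest of its group in 8 of 8 class II genes (35.4% of all genes) but in 7 of 20 class I genes. Macrophage and monocyte markers (15 of 16 tested) summed to 367 CPM in Sham replicate 1 and 233 and 262 in the other Sham hearts. By group the sum ran from 254 to 357 in IR edit, 310 to 324 in IR virus, 311 to 323 in IR and 233 to 367 in Sham hearts. Dendritic cell markers (6 of 10 tested) summed to 42.1 to 49.5 CPM in IR edit, 41.2 to 51.2 in IR virus, 42.5 to 44.0 in IR and 38.1 to 47.4 in Sham hearts. B and plasma cell markers (8 of 10 tested) summed to 11.2 to 12.9 CPM in IR edit, 13.1 to 14.7 in IR virus, 12.3 to 14.3 in IR and 8.87 to 10.9 in Sham hearts. Their part in the class II levels was not tested.

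Across hearts, relations with the transactivators varied widely within each class. Nlrc5 and Tap1 had r = 0.93 and rho = 0.94 over 13 hearts (permutation p = 2e-05 for each), and Tap1 ranked 2 among 15689 other genes by r with Nlrc5. Psmb8 ranked 4 (r = 0.91, rho = 0.83, permutation p = 2e-05 and 0.00069), H2-Q6 ranked 17 (r = 0.87) and H2-K1 ranked 55 (r = 0.79). With group means removed, r was 0.82 for Tap1, 0.87 for Psmb8, 0.80 for H2-Q6 and 0.78 for H2-K1. Their ranks were then 47, 16, 75 and 112. Without the 2 hearts farthest from the median of Nlrc5, IR edit replicates 2 and 4, r was 0.91, 0.81, 0.73 and 0.73.

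Ciita and H2-Eb1 had r = 0.79 and rho = 0.79 (permutation p = 0.0014 and 0.00235), and H2-Eb1 ranked 5 among the 15689 genes. Cd74 ranked 14 (r = 0.75), H2-Aa 16 (r = 0.75) and H2-Ab1 28 (r = 0.73). With group means removed, r with Ciita was 0.80 for H2-Eb1, 0.67 for Cd74, 0.76 for H2-Aa and 0.63 for H2-Ab1. Their ranks were then 42, 362, 115 and 567. Without Sham replicate 2 and IR virus replicate 2, r with Ciita was 0.67, 0.57, 0.58 and 0.58. Over 13 hearts Nlrc5 had r = 0.01 with H2-T22, 0.06 with Psmb10 and 0.18 with H2-K2 of class I. It had r = 0.73 with both H2-Ab1 and H2-Eb1 of class II. Without IR edit replicates 2 and 4, r with Nlrc5 was 0.33 for H2-T22, 0.54 for Psmb10 and -0.09 for H2-K2. For H2-Ab1 and H2-Eb1 it was then 0.64 and 0.56. With group means removed, r with Nlrc5 was 0.49 for H2-Ab1 and 0.56 for H2-Eb1. Of the class II genes, H2-Ob was lowest with Ciita (r = 0.47). The median r with Nlrc5 was 0.68 over 19 class I genes and 0.55 over 8 class II genes, and that with Ciita was 0.40 over 20 class I genes and 0.73 over 7 class II genes. With group means removed, the medians for class I and class II were 0.62 and 0.34 with Nlrc5 and 0.27 and 0.63 with Ciita. Adjusted over the 31378 relations of both transactivators with all genes tested, none passed 0.05, and the smallest adjusted p among members was 0.126, for Tap1 and Psmb8 with Nlrc5. With 100000 permutations the smallest p possible was 1e-05. Hearts were shuffled across groups, so these p-values include differences between groups, and r with group means removed was not tested. Hearts share their library across genes, so depth and composition enter every such relation.

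**Figure D5:**
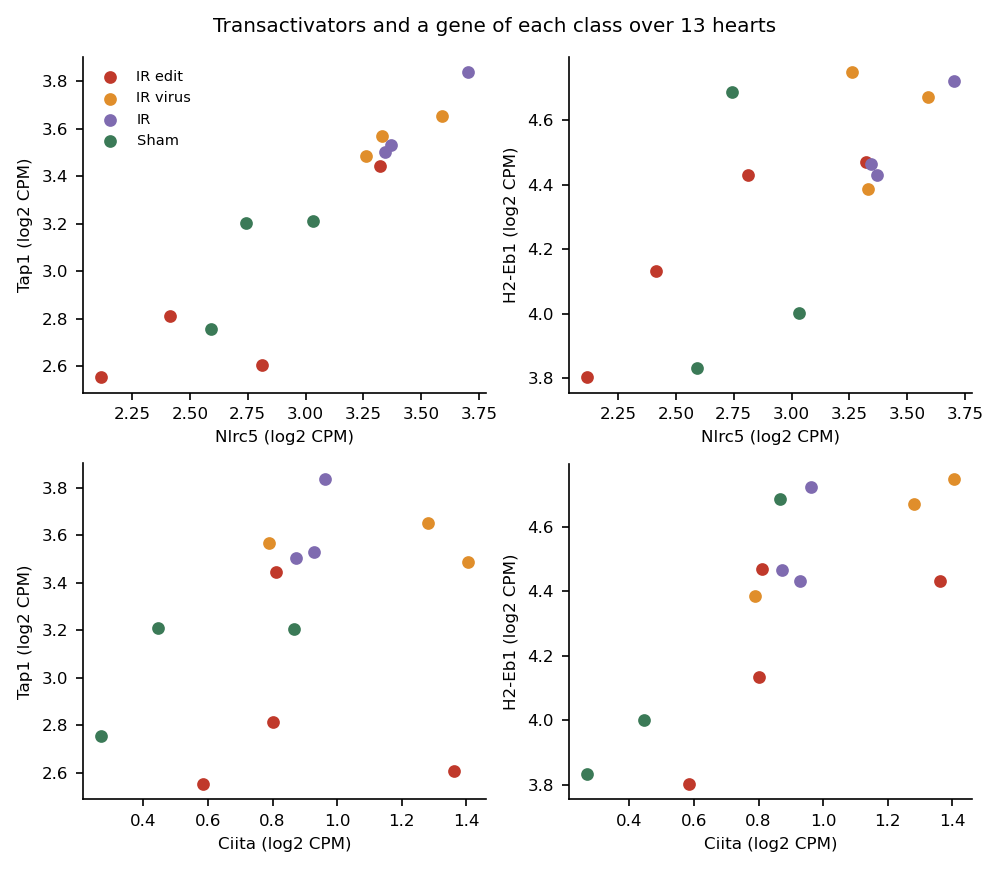
Log2 CPM of the class I transactivator Nlrc5 (upper row, x axis) and the class II transactivator Ciita (lower row, x axis) against Tap1 (left) and H2-Eb1 (right) in 13 hearts, coloured by group. Points lie nearest a line for Nlrc5 with Tap1 (r = 0.93) and spread more for Ciita with H2-Eb1 (r = 0.79).

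Among the factors that bind class I and class II promoters, Rfx5 fell in IR edit against IR virus. Rfx5, the DNA-binding subunit of the RFX complex on the X box, had 4.97, 4.44, 4.14 and 4.49 CPM in IR edit hearts, 7.01, 6.97 and 7.91 in IR virus, 5.98, 6.86 and 6.63 in IR and 4.61, 6.16 and 6.43 in Sham hearts. All IR edit hearts were below all IR virus and IR hearts, and 1 Sham heart reached into their range. The log2 fold change of Rfx5 was -0.69 ± 0.13 in IR edit against IR virus (adjusted p = 0.0121 by edgeR) and -0.52 ± 0.13 against IR (adjusted p = 0.0592). Without IR virus replicate 3 it was -0.63 against IR virus (adjusted p = 0.0642). Of the 9 listed factors (all tested) Rfx5 was the 1 called in IR edit against IR virus, where 2.02% of all genes were called. The list's median was 0.06. The other RFX subunits, Rfxap and Rfxank, had 0.11 ± 0.13 (adjusted p = 0.732) and -0.09 ± 0.11 (adjusted p = 0.736). Nfyc, a subunit of NF-Y on the Y box, fell in IR edit against Sham, by 0.36 on the log2 scale (adjusted p = 0.0423), a call lost in 5 of the 7 fits that leave out a heart, with adjusted p up to 0.125. There 8.01% of all genes were called.

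Genes of the interferon gamma response gave negative values in 13 of 17 tested (19 listed) in IR edit against IR virus. In IR edit against IR 14 of 17 were negative, and the medians were -0.23 and -0.29. Without editing, IR virus against IR also gave 14 of 17 negative values, with a median of -0.06. IR edit against Sham gave 11 of 17 negative values, with a median of -0.11. Values were positive in 15 of 17 in IR against Sham and 14 of 17 in IR virus against Sham, with medians of 0.20 and 0.13. Ifng itself did not pass the filter, with at most 0.042 CPM in any heart. Gbp5, an interferon-induced GTPase, fell in IR edit against IR, where 1.42% of all genes were called. It had 15.8, 10.4, 11.5 and 8.25 CPM in IR edit hearts, 17.4, 19.0 and 18.9 in IR virus, 19.0, 19.7 and 26.2 in IR and 22.5, 12.4 and 17.5 in Sham hearts. IR edit hearts were below all IR virus and IR hearts and overlapped with Sham, and the change against IR was -0.91 ± 0.20 (adjusted p = 0.0399 by edgeR). That call was lost without IR edit replicate 2 (adjusted p = 0.120) or 4 (0.101) and without IR replicate 1 (0.0925), 2 (0.111) or 3 (0.139). Irf1, a transcription factor of class I promoters, had -0.37 ± 0.11 in IR edit against IR virus (adjusted p = 0.108) and -0.45 ± 0.11 in IR edit against IR (adjusted p = 0.0541).

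Other steps of the pathway showed few calls. Class I loading partners outside the members (7 listed and tested) had 0 called in each of the 6 comparisons by edgeR, as did the 3 constitutive proteasome subunits and the 6 class II processing enzymes. Their medians in IR edit against IR virus were -0.01, 0.06 and -0.05. In IR edit against Sham, Hfe, a class I-like molecule of iron uptake, rose by 0.35 ± 0.098 on the log2 scale (adjusted p = 0.0412 by edgeR), and Cd80, a costimulatory ligand for T cells, rose by 1.71 ± 0.39 at low counts (adjusted p = 0.0173). Each was lost in 4 of the 7 fits that leave out a heart. Of the 5 listed class I-like molecules (all tested) 2 had positive values there, with a median of -0.03. Among the 5 tested genes listed with Cd80 for class II turnover and costimulation (7 listed) 3 were positive, with a median of 0.15. In that comparison, where 8.01% of all genes were called, 3 of 6 fibroblast markers rose, with a median of 0.30 over the list: Col1a1, Col1a2 and Pdgfra, lost in 4, 5 and 5 of the 7 fits that leave out a heart. Pax5, 1 of 8 tested B and plasma cell markers, rose by 1.22 on the log2 scale (adjusted p = 0.0485 by edgeR) and was lost in 7 of 7 such fits. The fibroblast list also had 6 of 6 positive values in IR virus against Sham and in IR against Sham, with medians of 0.45 and 0.46. None was called there, where 0.0127% of all genes were called. Summed fibroblast markers ran from 846 to 1275 CPM in IR edit, 979 to 1218 in IR virus, 897 to 1204 in IR and 801 to 818 in Sham hearts. Their part in the MHC values was not tested. Of the 8 tested endothelial markers 1, Emcn, fell in IR edit against IR (1.42% of all genes called), by 0.36 on the log2 scale (adjusted p = 0.0225 by edgeR), a call lost in 5 of the 7 fits that leave out a heart. Summed endothelial markers ran from 789 to 913 CPM in IR edit hearts and from 843 to 939.8 in IR hearts, and their part in the MHC values was not tested. Of the 15 tested macrophage and monocyte markers, 1 was called in each IR edit comparison: Ccr2, the chemokine receptor of recruited monocytes. Of all genes, 2.02% were called against IR virus, 1.42% against IR and 8.01% against Sham. Over the list, the log2 fold change was positive in 9 of 15 markers against IR virus, 9 of 15 against IR and 11 of 15 against Sham. The medians were 0.08, 0.12 and 0.21. Ccr2 had 4.04, 4.97, 3.16 and 3.20 CPM in IR edit hearts, 8.76, 8.95 and 9.22 in IR virus, 11.04, 11.9 and 6.11 in IR and 8.76, 4.52 and 9.13 in Sham hearts, so that only Sham overlapped with IR edit. Ccr2 fell by 1.22 on the log2 scale against IR virus (adjusted p = 0.0211 by edgeR), by 1.33 against IR (adjusted p = 0.0136) and by 0.96 against Sham (adjusted p = 0.0317). The call against IR virus was lost without IR edit replicate 4 (0.0595) or without IR virus replicate 1 (0.0823), 2 (0.0722) or 3 (0.0769), that against IR without IR replicate 1 (0.0922) or 2 (0.108), and that against Sham without IR edit replicate 4 (0.0944) or Sham replicate 1 (0.113) or 3 (0.119). The part of Ccr2-bearing cells in the levels of MHC genes was not tested.

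A further limit is the filter on low counts. With no filter, edgeR called 7 members in IR edit against IR virus (Cd74, H2-Aa, H2-Ab1, H2-Eb1, H2-Q6, Nlrc5 and Tap1, with 3.18% of all genes called) and 4 in IR edit against IR (H2-Aa, H2-Q6, Nlrc5 and Tap1, 3.19%), all lower in IR edit. It then called 6 in IR virus against Sham (Cd74, H2-Aa, H2-Ab1, Nlrc5, Psmb10 and Tap1, 2.7%), 2 in IR against Sham (Nlrc5 and Tap1, 1.87%) and 1 in IR edit against Sham (Psmb10, 6.9%), all higher than in Sham hearts.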

How the data were processed

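The counter featureCounts 1.6.2, HISAT2 2.1.0 (build mm10), Trimmomatic 0.39 and FastQC 0.11.8 are named in the submitters' processing notes. Not given in the sources used here were the annotation, the use of strand and the treatment of reads with several matches. The authors deposited raw counts per gene symbol, 1 file per heart, as whole numbers. Per the labels, RNA came from whole hearts and libraries were made with a KAPA mRNA kit.

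Counts were scaled with TMM, filtered with filterByExpr and fitted with edgeR 4.0.16 (R 4.3.3, quasi-likelihood test, a mean per group over 13 libraries, 9 residual degrees of freedom, two-sided), with Benjamini-Hochberg adjustment over 15690 genes. The SE is the absolute log2 fold change over the square root of F. Log2 CPM used a prior count of 2. DESeq2 1.42.0 was an alternative, and the fits were tested on simulated data. The planted changes were larger than any main fitted change of a member, so power for changes of that size was not tested. Lengths and positions came from GENCODE M21 on GRCm38. Permutation tests were two-sided and shuffled hearts across groups. Genes with values per heart were the core presentation genes, those of each class with the smallest p, and list members past the threshold, and H2-M3 was added after its values were seen. Members and lists were chosen with earlier results of these data known. Same-numbered hearts of different groups had correlations of -0.13 to 0.22, not over 0.1 in every pair of any comparison, so numbers were not taken as pairs. No 2 libraries of a group agreed within sampling noise.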

Additional observations from a re-analysis of the deposited data

Results flagged for a closer look

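For the 4 IR edit hearts, the only group large enough, 31 measures were examined with Dixon's test, and 2 had a heart far from the others. H2-D1 in IR edit replicate 1 was 110.7 CPM, with the nearest of the other 3 at 82.9. H2-Q7 in the same heart was 9.46 CPM, with the nearest at 5.12. Chance gives such a flag in about 1 of 20 measures, so flags are expected among 31. The measures come from the same hearts and are not independent.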

How the results depend on the processing

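The count of members called was 0 in every comparison with DESeq2's size factors, without mitochondrial genes, with a filter of 1 CPM in 3 libraries, with a robust dispersion, with the replicate block and with only the 2 groups compared. With no filter it was 7 in IR edit against IR virus, 4 in IR edit against IR, 6 in IR virus against Sham, 2 in IR against Sham, 1 in IR edit against Sham and 0 in IR virus against IR. With DESeq2 it was 1 in IR edit against IR virus and 2 in IR edit against IR. Leaving out 1 heart gave 0 to 2 in IR edit against IR virus, 0 to 2 in IR edit against IR, 0 to 1 in IR edit against Sham and 0 in the other comparisons. The cause was not tested. With the replicate block the smallest adjusted p of a member by edgeR was 0.0833 in IR virus against Sham, against 0.206 without the block. In IR against Sham it was 0.174, against 0.439 without the block. In IR edit against IR virus it was 0.111, against 0.0838, and in IR edit against IR 0.137, against 0.0643. The class I score difference of IR virus against IR was -0.00 and moved to -0.0895 as log2 of summed CPM. That of IR edit against Sham, -0.02, ran from -0.16 to 0.08 and turned its sign in 4 of 11 alternatives. In IR edit against IR virus the class I score difference ran from -0.43 to -0.12 and that of class II from -0.47 to -0.27. All 13 calls in the other gene lists were lost in at least 1 fit that left out a heart, Pax5 in all 7, with an adjusted p of up to 0.167. The 13 members with 0 reads and those with few reads could not be compared at this depth.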
